A study of Mus musculus with 10 samples.

Results

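The T cell receptor complex and its coreceptors were followed through 10 genes: Cd3d, Cd3e, Cd3g and Cd247, which encode the CD3 and zeta chains, the coreceptor genes Cd4, Cd8a and Cd8b1, the kinase genes Lck and Zap70, and the adaptor gene Lat. They were chosen by symbol, all 10 were found among the 35958 features of the expression table, and all 10 were among the 15767 features that passed the filter on low counts. The study asked whether the state of a tumor before treatment differed between mice that later did or did not respond to a hydrogel loaded with poly(I:C), a synthetic double-stranded RNA. RNA sequencing was performed on subcutaneous WEHI-164 tumors, a BALB/c fibrosarcoma line, from 5 responders and 5 non-responders. All 10 tumors were wild type, grown in female BALB/c mice and untreated when sampled, and the study used mice of 8 to 12 weeks. In this model 75% of the tumor was removed and the gel was placed in the wound, so each library is 1 resected piece of 1 mouse and the later response refers to what was left behind. Responders are numbered 5, 9, 10, 11 and 12 and non-responders 1, 2, 3, 6 and 7, as in the labels, and values for a group are given below in that order. Total estimated counts ran from 16002949 to 31160790 in responders (median 25627675) and from 19863863 to 28276142 in non-responders (median 22757833).

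The antigen-binding chains of the T cell receptor have no signaling domain of their own. They are carried to the cell surface with the CD3 gamma, delta, epsilon and zeta chains, whose cytoplasmic motifs are phosphorylated by LCK once CD4 or CD8 brings this kinase to the receptor. ZAP-70 then docks on the zeta chain and phosphorylates LAT, the scaffold from which calcium, MAP kinase and NF-kB signals start. CD4 binds MHC class II and marks helper and regulatory T cells, whereas the CD8 alpha-beta pair binds MHC class I and marks cytotoxic T cells. Not every one of these genes is private to T cells: natural killer (NK) cells also use Cd247, Lck, Zap70 and Lat, and some dendritic cells make Cd8a. In a piece of whole tumor, fewer cells of a type and less RNA per cell cannot be told apart.

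On GRCm38 (GENCODE vM21), 3 of the genes form a cluster on chromosome 9. Cd3g (chr9:44969572-44980431, minus strand) and Cd3d (chr9:44981786-44987339, plus strand) start 1355 bases apart and point away from each other, and Cd3e (chr9:44998740-45009627, minus strand) completes a span of 40056 bases. Cd8b1 (chr6:71322788-71337494) and Cd8a (chr6:71373427-71379173) are neighbors on the plus strand of chromosome 6, which also holds Cd4 (chr6:124864692-124888221, minus strand). Zap70 (chr1:36761798-36782818) and Cd247 (chr1:165788681-165877277) are on the plus strand of chromosome 1, Lck (chr4:129548344-129573641) on the minus strand of chromosome 4 and Lat (chr7:126363824-126369570) on the minus strand of chromosome 7. All 10 are protein-coding. Exons of Cd3e overlap the antisense gene Gm48719, those of Cd247 overlap Gm16565 and Pou2f1, and those of Lck and Lat overlap the microRNA genes Mir8119 and Mir7058. Counts of Cd3d, Cd247 and Cd8b1 were whole numbers (within 0.01) in 0 of 10 tumors, whereas Cd3e, Cd4, Lck, Zap70 and Lat had whole counts in all 10 tumors. Fractions can arise when reads that match more than 1 gene are shared out, but their cause here was not tested, and exons of Cd3d and Cd8b1 overlap no other gene.

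The bases just upstream of the 3 clustered genes are shown because these genes lie next to each other and varied together across tumors (below). This was not particular to neighbors. Cd3d and Cd3g followed Cd3e with Pearson's r of 0.855 and 0.851, against 0.935 for Cd4 and 0.934 for Cd8b1 on chromosome 6, and 0.668 for Cd247 on chromosome 1. The bases are from RefSeq (GRCm38.p6), which gave an entry for 8 of the 10 genes (all but Cd4 and Cd8b1), 11 starts in all. Capitals mark matches on either strand to the letters searched, which were TGTGGT for RUNX factors, CCGGAAG for ETS factors, CAGGTG for the E-box, AGATAA for GATA factors and CTTTGA for TCF and LEF factors. No 2 matches overlap in these windows.
Cd3g, chr9:44980432-44980681, minus strand: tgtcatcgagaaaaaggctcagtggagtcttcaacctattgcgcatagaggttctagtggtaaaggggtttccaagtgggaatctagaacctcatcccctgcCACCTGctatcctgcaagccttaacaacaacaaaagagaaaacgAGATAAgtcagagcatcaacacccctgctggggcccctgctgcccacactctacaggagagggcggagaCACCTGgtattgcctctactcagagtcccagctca
Cd3d, chr9:44981536-44981785, plus strand: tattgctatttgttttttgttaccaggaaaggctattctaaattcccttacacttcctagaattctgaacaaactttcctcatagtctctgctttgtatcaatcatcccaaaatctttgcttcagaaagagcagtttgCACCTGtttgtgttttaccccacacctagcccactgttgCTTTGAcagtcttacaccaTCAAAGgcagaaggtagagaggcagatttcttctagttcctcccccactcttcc
Cd3e, chr9:45009628-45009861, minus strand: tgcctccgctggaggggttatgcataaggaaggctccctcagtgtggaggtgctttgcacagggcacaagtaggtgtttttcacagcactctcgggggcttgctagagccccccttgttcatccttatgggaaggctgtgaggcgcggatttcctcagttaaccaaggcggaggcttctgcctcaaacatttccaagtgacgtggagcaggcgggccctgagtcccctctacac
The Cd3g window holds 2 E-box matches and 1 GATA match, the Cd3d window holds 1 E-box and 2 TCF/LEF matches, and the Cd3e window holds none of the 5. Of 32851 mouse promoter windows, 17.2% hold the E-box letters, 9.99% the GATA letters, 13.8% the TCF/LEF letters, 14% the RUNX letters and 6.91% the ETS letters. A match is a stretch of letters, and no binding was measured.

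All 10 genes were expressed at a low level. Counts per gene and tumor ran from 17 for Cd8b1 in responder 5 to 432 for Lck in responder 11. Divided by the length of the longest protein-coding transcript, the mean level over the 10 tumors was highest for Cd3g (4.79 CPM per kb, where CPM are counts scaled to a library of fixed size), Lck (4.02), Lat (2.86), Cd4 (2.48) and Cd3e (2.37). Zap70 (1.75), Cd8a (1.58), Cd247 (1.3), Cd3d (1.29) and Cd8b1 (1.13 CPM per kb) followed. Between neighbors in this order, the mean within-tumor log2 difference exceeded its SD only from Lck to Lat (0.47 ± 0.22, Lck higher in 10 of 10 tumors) and from Cd3e to Zap70 (0.51 ± 0.34, Cd3e higher in 10 of 10), and the other 7 neighboring pairs did not differ beyond their spread. By comparison, Ptprc, which encodes the leukocyte antigen CD45, was at 21.9 CPM per kb and the macrophage marker Adgre1 at 20.7 CPM per kb.

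**Figure D1:**
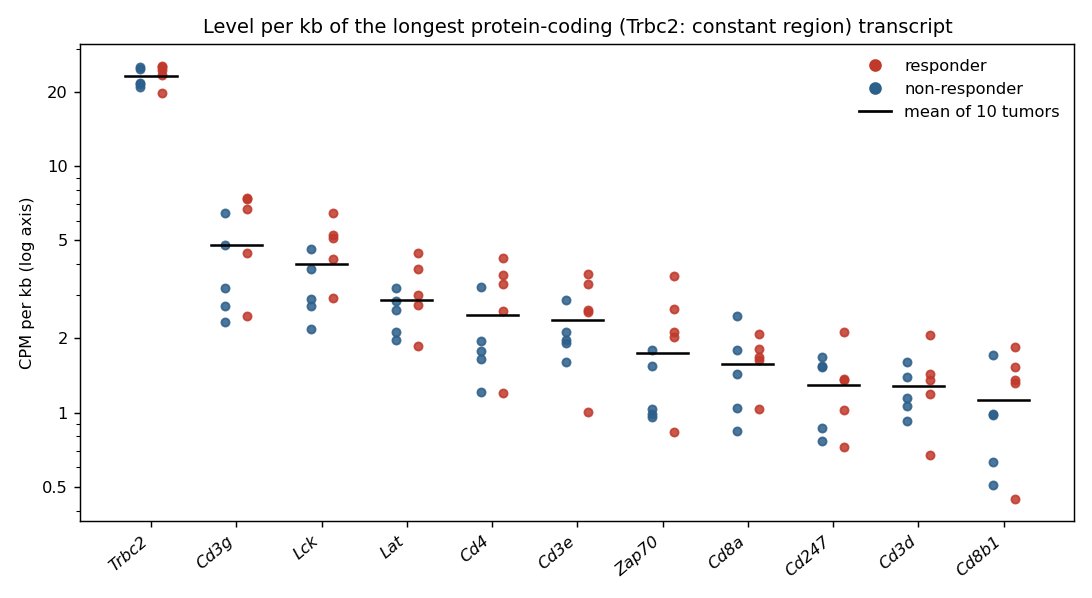
Level of each gene and of Trbc2 in CPM per kb of transcript (log axis), with 1 point per tumor (blue, non-responders; red, responders) and the mean of the 10 tumors as a black line. Cd3g and Lck lead the 10 genes at 4.79 and 4.02 CPM per kb, and Trbc2 stands apart at 23.3 CPM per kb.

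Responders had the higher mean of all 10 genes, with fitted folds from 1.04 for Cd247 to 1.78 for Zap70, but none of the 10 passed the test, as none of the 15767 features did (0% called at a Benjamini-Hochberg adjusted p of 0.05 by the quasi-likelihood F-test of edgeR; 1294 had an unadjusted p under 0.05, and DESeq2 called 1 feature, the collagen gene Col6a2, which is outside the naming rule). A log2 fold change above 0 was found for 10 of 10 genes against 48.6% of all features, with a median of 0.39 against -0.0036. A p that misses the threshold does not show that the levels were alike, and the SE of the log2 fold changes ran from 0.22 to 0.37. The 10 genes vary together across tumors, so their shared sign is not 10 separate observations. Lck and Zap70, 2 of the 10, had an unadjusted p under 0.05 in favor of responders, a direction in which 4.20% of all features did, and 0 of 10 were lower at that threshold against 4.0%. In none of the 10 was every responder above every non-responder, which held for 0.336% of all features. These counts turned on single tumors, as did the share of all features with an unadjusted p under 0.05 in either direction, which was 8.21% with all 10 tumors. Without responder 5, 7 of the 10 genes were under 0.05 (13.6% of all features), and without non-responder 1 there were 4 (9.78%). The count was 1 without non-responder 2 (7.28%), non-responder 3 (9.06%) or responder 10 (6.85%), and 0 without responder 11 (5.34%) or non-responder 7 (5.94%). The later response is known per mouse and each mouse gave 1 piece, so the p-values measure the spread between these tumors.

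**Figure D2:**
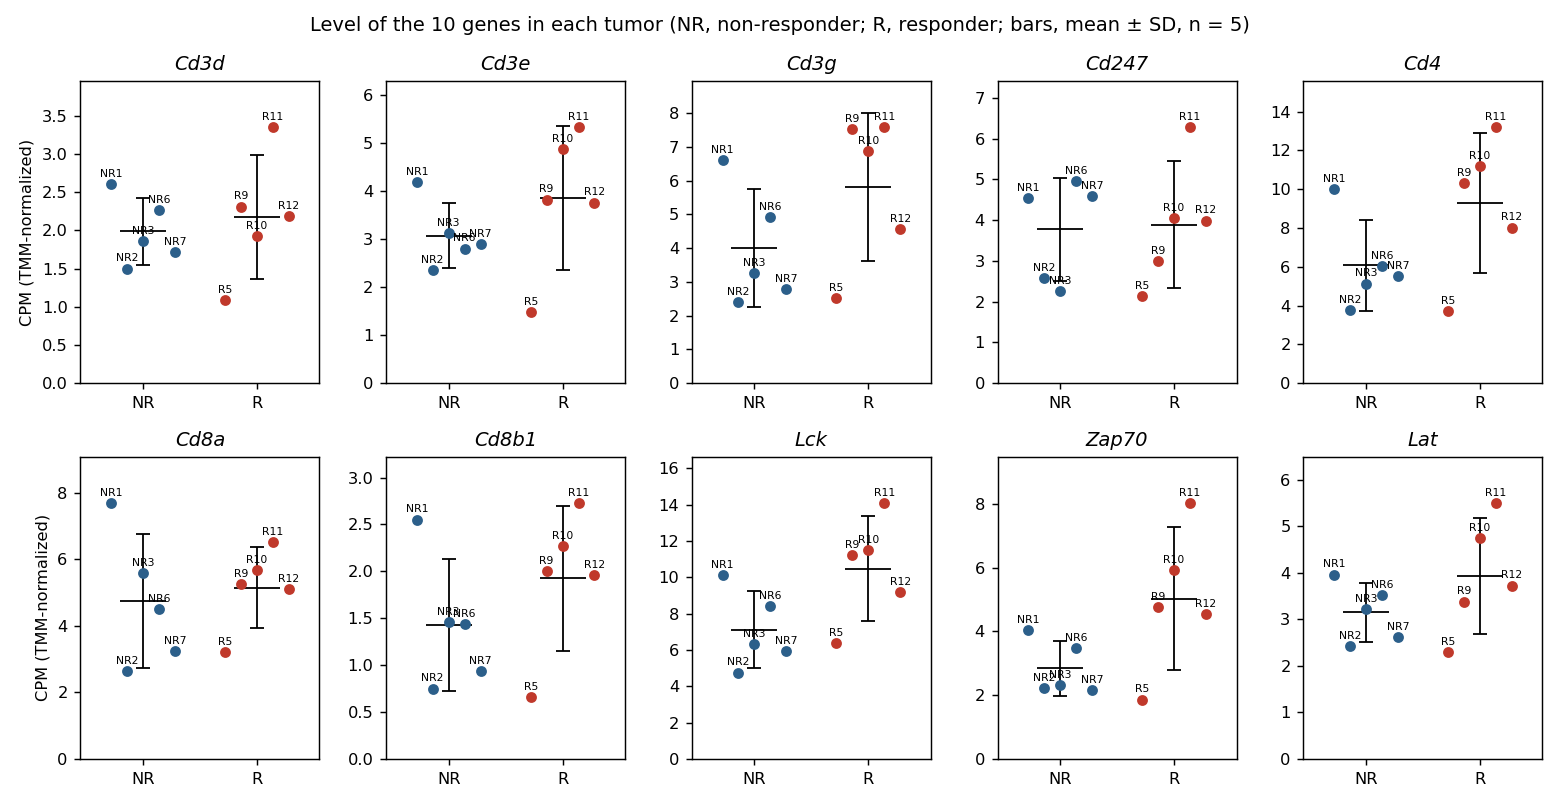
CPM of each gene in every tumor (y axis from 0), non-responders in blue and responders in red, with the tumor name at each point and the mean ± SD of 5 tumors in black. Responder 11 is highest in 9 panels, responder 5 is lowest in 7, and the groups overlap in all 10.

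Zap70, the kinase that docks on the phosphorylated zeta chain, showed the largest difference of the 10. It was measured at 1.86, 4.75, 5.92, 8.03 and 4.53 CPM in responders and at 4.05, 2.22, 2.32, 3.48 and 2.15 CPM in non-responders. Thus 4 of the 5 responders were above every non-responder, and responder 5 was below every one of them. The means were 5.02 ± 2.25 and 2.84 ± 0.867 CPM (SD, n = 5 each), and the log2 fold change was 0.83 (SE 0.32; edgeR adjusted p = 0.586). Lck, the kinase bound to the coreceptors, was measured at 6.37, 11.2, 11.5, 14.1 and 9.2 CPM in responders and at 10.1, 4.75, 6.34, 8.4 and 5.95 CPM in non-responders. It was the only one of the 10 in which all 5 responders, responder 5 included, lay above the median of the non-responders. Its means were 10.5 ± 2.87 and 7.11 ± 2.13 CPM, with a log2 fold change of 0.56 (SE 0.22; edgeR adjusted p = 0.586). Lat, the scaffold downstream of both, was measured at 2.29, 3.38, 4.74, 5.5 and 3.72 CPM in responders and at 3.96, 2.43, 3.22, 3.52 and 2.62 CPM in non-responders. The groups overlapped widely, with a log2 fold change of 0.33 (SE 0.22; edgeR adjusted p = 0.715), which was 0.17 without responder 11 and 0.48 without responder 5. Before adjustment the edgeR p was 0.0213 for Zap70 and 0.0257 for Lck. Without responder 11 the unadjusted p was 0.0774 for Zap70 and 0.0785 for Lck, and without responder 5 it was 0.000585 for Zap70 and 0.00363 for Lck.

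Among the CD3 chains, Cd3g, the gamma chain, differed most. It was measured at 2.53, 7.51, 6.86, 7.58 and 4.56 CPM in responders and at 6.6, 2.39, 3.27, 4.92 and 2.78 CPM in non-responders. Responders 9, 10 and 11 exceeded every non-responder, whereas responder 5 lay near the low end of the non-responders. The log2 fold change was 0.54 (SE 0.32; edgeR adjusted p = 0.685). Cd3e, the epsilon chain present in every CD3 dimer, was measured at 1.48, 3.82, 4.88, 5.33 and 3.76 CPM in responders and at 4.18, 2.36, 3.12, 2.8 and 2.9 CPM in non-responders. Here responder 5 was the lowest of all 10 tumors and responders 10 and 11 the highest, and the log2 fold change was 0.33 (SE 0.28; edgeR adjusted p = 0.773), or 0.18 without responder 11 and 0.55 without responder 5. Cd3d, the delta chain, was measured at 1.09, 2.31, 1.92, 3.35 and 2.19 CPM in responders and at 2.6, 1.5, 1.86, 2.26 and 1.72 CPM in non-responders, with a log2 fold change of 0.14 (SE 0.26; edgeR adjusted p = 0.911). Cd247, the zeta chain, was the least different, at 2.14, 3, 4.05, 6.28 and 3.99 CPM in responders against 4.53, 2.57, 2.26, 4.96 and 4.58 CPM in non-responders (log2 fold change 0.05, SE 0.28; edgeR adjusted p = 0.977). In Cd247, 3 non-responders (1, 6 and 7) were above every responder other than responder 11. The sign of 2 of these 4 differences depended on single tumors: without responder 11 the log2 fold change was -0.09 for Cd3d and -0.20 for Cd247, and without non-responder 2 or 3 that of Cd247 was -0.06 or -0.07.

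The coreceptor genes had unequal differences. Cd4 was measured at 3.73, 10.3, 11.2, 13.2 and 8.02 CPM in responders and at 10, 3.75, 5.13, 6.05 and 5.52 CPM in non-responders. Responders 9, 10 and 11 were above every non-responder, responder 12 was above all but non-responder 1, and responder 5 was the lowest tumor. The log2 fold change was 0.61 (SE 0.31; edgeR adjusted p = 0.623). Cd8a was measured at 3.22, 5.25, 5.67, 6.51 and 5.1 CPM in responders and at 7.7, 2.64, 5.59, 4.51 and 3.25 CPM in non-responders, so that its highest tumor was non-responder 1, the only case among the 10 genes. Its log2 fold change was 0.13 (SE 0.27; edgeR adjusted p = 0.922), and -0.03 without non-responder 2. Cd8b1, whose product pairs with CD8 alpha on cytotoxic T cells, was measured at 0.66, 2, 2.27, 2.73 and 1.96 CPM in responders and at 2.55, 0.75, 1.46, 1.44 and 0.939 CPM in non-responders (log2 fold change 0.44, SE 0.37; edgeR adjusted p = 0.773). Leaving out 1 tumor at a time, its log2 fold change ran from 0.27 (without non-responder 2 or responder 11) to 0.76 (without non-responder 1). It rested on the fewest reads, from 17 to 84 counts.

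**Figure D3:**
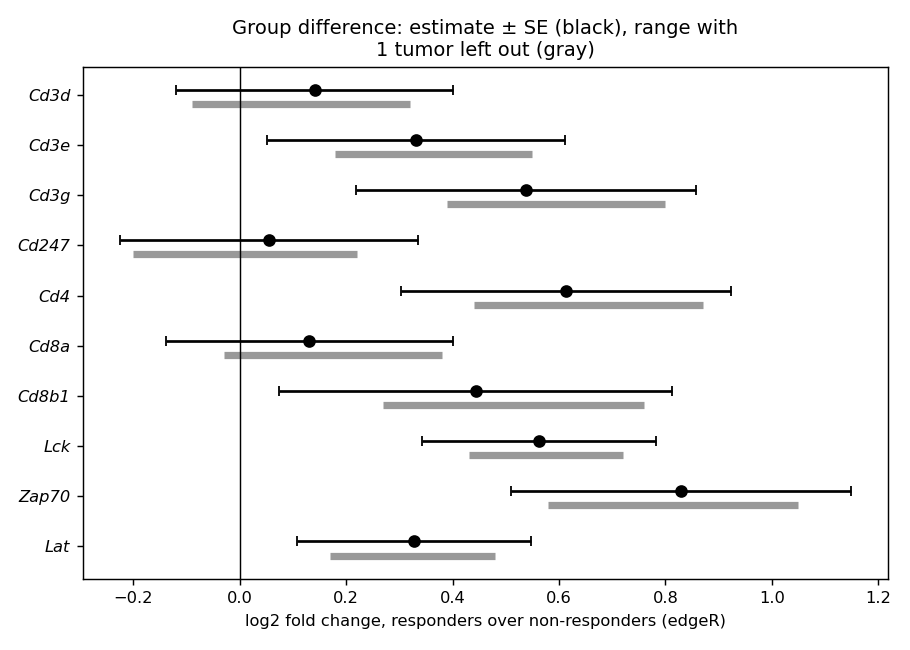
Log2 fold change of responders over non-responders for each gene (x axis; black point, edgeR estimate with its SE) and the range of estimates when 1 tumor at a time was left out (gray bar). Zap70 lies farthest to the right at 0.83, and the gray bars of Cd3d, Cd247 and Cd8a cross 0.

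Ratios compare genes of the same library, and 6 were compared between groups with an exact two-sided permutation test, whose smallest possible p with 5 against 5 tumors is 0.00794. The log2 ratio of Cd4 to Cd3e was 0.93, 1.23, 1.06, 1.17 and 0.92 in responders and 1.09, 0.5, 0.57, 0.89 and 0.74 in non-responders. Cd4 relative to the epsilon chain was thus higher in all 5 responders than in all non-responders but 1, by a mean of 0.30 (1.06 ± 0.14 against 0.76 ± 0.24; exact permutation p = 0.0476, 0.238 adjusted over the 6 ratios). The log2 ratio of Cd4 to Cd8a was 0.16, 0.86, 0.88, 0.92 and 0.56 in responders and 0.34, 0.38, -0.1, 0.35 and 0.62 in non-responders (difference 0.36; exact permutation p = 0.0794, adjusted 0.238). Responders 9, 10 and 11 were above every non-responder and responder 5 was below 4 of the 5. The log2 ratio of Cd8b1 to Cd8a, the beta chain relative to the alpha chain, was between -1.06 and -1.01 in 4 responders and -1.35 in responder 5, against -1.42 to -1.06 in non-responders (difference 0.12, or 0.07 without non-responder 3 and 0.19 with a pseudocount of 0.25 CPM; exact permutation p = 0.222, adjusted 0.444). For Cd8a to Cd3e the difference was -0.05 (exact permutation p = 0.722, adjusted 0.867) and for Cd247 to Cd3e -0.18 (p = 0.413, adjusted 0.619, exact permutation). The ratio of Cd3e to Ptprc, the epsilon chain relative to all leukocytes, had a mean of -4.68 ± 0.36 in responders and -4.69 ± 0.19 in non-responders (difference 0.01; exact permutation p = 0.968, adjusted 0.968). No ratio passed after adjustment. Leaving out 1 tumor at a time, the unadjusted exact permutation p of Cd4 to Cd3e ran from 0.0159 to 0.0952, and with a pseudocount of 0.25 CPM it was 0.0556. Without responder 5 it was 0.0317 for Cd4 to Cd8a and for Cd8b1 to Cd8a (exact permutation test), and the difference for Cd247 to Cd3e ran from -0.31 without non-responder 3 to -0.07 without non-responder 6. The sign of the other 2 differences turned on single tumors, from -0.15 to 0.02 for Cd8a to Cd3e and from -0.06 to 0.16 for Cd3e to Ptprc.

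**Figure D4:**
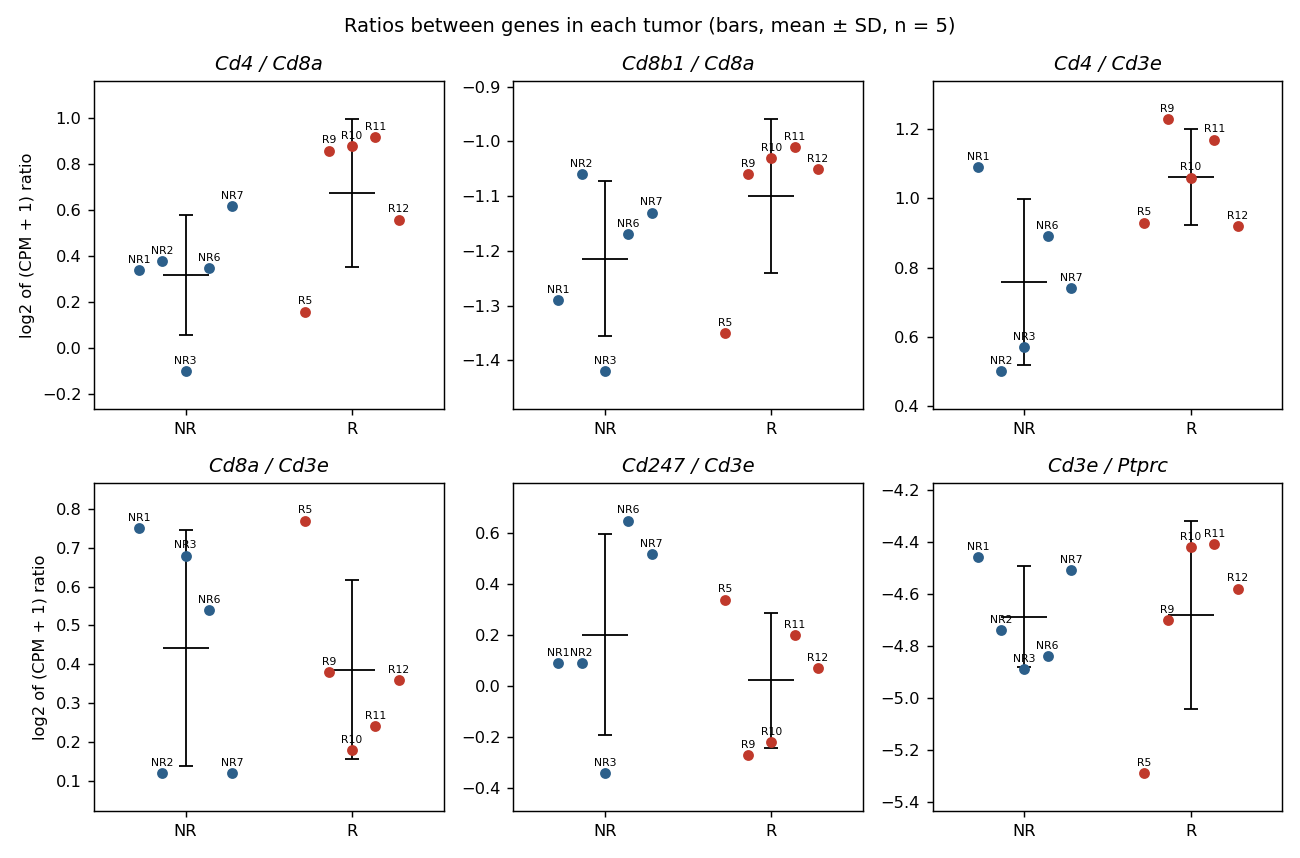
Log2 ratio of CPM + 1 between pairs of genes in each tumor (y axis, a separate range in each panel), with the tumor name at each point and the mean ± SD of 5 tumors in black. In the Cd4 to Cd3e panel the 5 responders lie between 0.92 and 1.23, and in the Cd3e to Ptprc panel responder 5 lies lowest at -5.29.

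The spread within groups was wide, and it was shared by the genes. Ranked from 1 for the highest tumor, responder 11 had a mean rank of 1.1 over the 10 genes and responder 5 a mean rank of 9.5, close to non-responder 2 at 9.1. Non-responder 1 (mean rank 3.2) was the highest non-responder in 9 of 10 genes and was above the median of the responders in 6. The highest tumor exceeded the lowest by 2.4 times for Lat and by 4.31 times for Zap70. Across the 10 tumors the log2(CPM + 1) of Cd4, Cd8b1 and Lat followed that of Cd3e with Pearson's r = 0.935, 0.934 and 0.919 (Spearman's rho 0.939, 0.976 and 0.903; permutation p = 2e-05, 2e-05 and 0.0002, or 9e-05, 9e-05 and 0.0006 adjusted over 9 relations). Of the 9 relations, 9 passed by Pearson's r and 8 by Spearman's rho after adjustment, the lowest being Cd247 (r = 0.668, rho = 0.503; permutation p = 0.0341 and 0.144). Without responders 5 and 11, the 2 tumors farthest from the median of Cd3e, 7 of 9 kept an exact permutation p under 0.05, r for Cd4 was 0.946, and those of Cd3d (r = 0.573, exact permutation p = 0.136) and Cd247 (r = 0.274, exact permutation p = 0.505) did not. Taken as deviations from the group means, r was between 0.685 and 0.952 for the 9 relations.

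**Figure D5:**
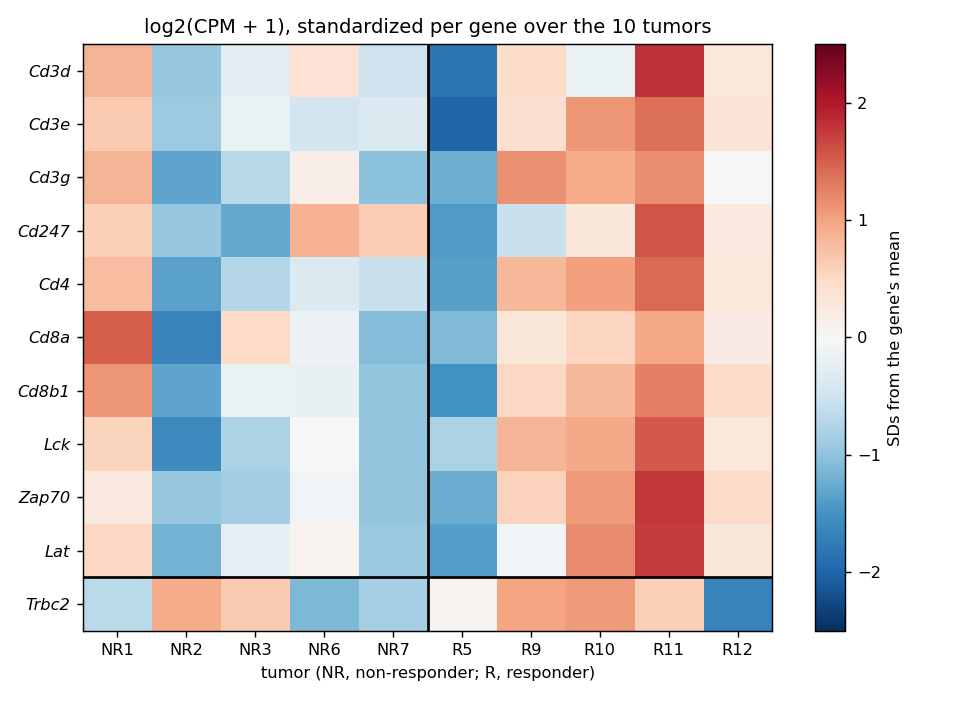
Log2(CPM + 1) of the 10 genes and of Trbc2 (rows) in each tumor (columns), standardized per gene over the 10 tumors, with red above and blue below the gene's mean. The columns of responder 11, responder 12 and non-responder 1 are above the mean in all 10 genes and those of responder 5 and non-responder 2 below it, which the row of Trbc2 does not follow.

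The receptor genes themselves gave a mixed picture. Trbc2, a constant region of the beta chain, was measured at 16.2, 17.6, 17.7, 16.9 and 13.8 CPM in responders and at 15.1, 17.5, 17.1, 14.5 and 14.9 CPM in non-responders. Its level was nearly the same in every tumor, from 13.8 to 17.7 CPM, and stood at 23.3 CPM per kb of the constant region, above the 1.29 to 4.79 CPM per kb of the 3 Cd3 genes it is assembled with, and the log2 fold change was 0.05 (SE 0.08; edgeR adjusted p = 0.893). Its r with the mean of the standardized Cd3d, Cd3e and Cd3g was 0.0552 over the 10 tumors, place 6582 of 14944 named features. Which cells these reads came from was not settled by the data, so the value cannot be read as the level of the receptor. Trac, Trbc1 and Trdc were not analysed here. The variable segments, which are transcribed at a high level only after rearrangement in T cells, were each at a few reads and were summed. The 121 Trav rows held 15 to 48 counts per tumor. Their CPM were taken from estimated counts rounded to whole numbers in each row, whereas these counts were summed before rounding. The summed CPM therefore came out lower than these counts give in most tumors and are approximate. These sums were 0.66, 1.25, 1.28, 1.46 and 1.65 CPM in responders against 1.01, 0.465, 0.705, 0.812 and 0.548 CPM in non-responders. As for Zap70, 4 responders were above every non-responder and responder 5 was not, and the same held for the 26 Trbv rows (2.61 ± 0.765 against 1.34 ± 0.544 CPM). Of the segments of the gamma and delta chains, the 7 Trgv rows summed to 0.383 ± 0.156 against 0.204 ± 0.0979 CPM, with 2 responders above every non-responder, and the 6 Trdv rows to 0.496 ± 0.169 against 0.535 ± 0.392 CPM, with 0 above. Of the gamma-chain constant regions, Trgc4 had a mean of 0.55 ± 0.344 CPM in responders and 0.239 ± 0.124 in non-responders (log2 fold change 1.20, SE 0.51; edgeR adjusted p = 0.591) on 2 to 30 counts, Trgc1 and Trgc2 had log2 fold changes of 0.19 and -0.21 (edgeR adjusted p = 0.946 for both), and Trgc3 was at 0 in all tumors.

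Of 31 other genes of the T cell receptor signaling pathway, 20 had a higher and 11 a lower mean in responders, with a median log2 fold change of 0.03. An unadjusted p under 0.05 was found for 4 higher and 1 lower (of all features 4.20% and 4.0%). The 3 most abundant, the calcineurin subunits Ppp3r1 and Ppp3ca and the transcription factor Nfatc3, are made by most cells and were at log2 fold changes of -0.09 (SE 0.04), -0.08 (SE 0.05) and -0.04 (SE 0.05), with Ppp3r1 the 1 lower gene (edgeR adjusted p = 0.601). The higher genes, named after their values were seen, included the Tec-family kinase gene Txk (log2 fold change 1.05), the adaptor gene Skap1 (0.76) and the protease gene Malt1 (0.45). Among 19 negative regulators, 15 were higher and 4 lower (median 0.12), with 2 higher at an unadjusted p under 0.05: Lax1 (0.92) and the phosphatase gene Ptpn22 (0.33), also named after their values were seen. The abundant members Cbl (0.06), Csk (-0.11) and Dgkz (-0.07), a ubiquitin ligase, the kinase that restrains LCK and a diacylglycerol kinase, had differences near 0.

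Of 12 costimulatory and accessory receptors listed, 11 of 11 tested had a higher mean in responders (median log2 fold change 0.52), a direction that 48.6% of all features had, and 2 had an unadjusted p under 0.05 (4.20% of all features). Tnfrsf9, which encodes the costimulatory receptor 4-1BB, had a mean of 58.6 ± 17.2 CPM in responders against 39 ± 4.35 CPM in non-responders (log2 fold change 0.59, SE 0.18; edgeR adjusted p = 0.58), and Cd44 and Ptprc had log2 fold changes of 0.09 and 0.19. The integrin gene Itgal (0.37) was the other of 2 with an unadjusted p under 0.05 and is named after its value was seen. Of 9 genes of T cell identity tested, 7 were higher and 2 lower (median 0.36), with 3 higher at an unadjusted p under 0.05 (4.20% of all features): Gimap4, Il7r and Ms4a4b, the latter 2 named after their values were seen. Thy1 (58.5 ± 14.9 against 46.3 ± 9.03 CPM) and Gimap4 (18.5 ± 3.28 against 14.5 ± 3.06 CPM) were among the higher, and the transcription factor gene Tcf7 was at 111 ± 12.1 CPM in responders against 116 ± 14.9 CPM in non-responders. Over the 10 tumors the r of Tcf7 with the mean of the standardized Cd3 genes was -0.474. Tcf7 and Thy1, with means of 114 and 52.4 CPM, stood far above Cd3e (3.46 CPM). Which cells their reads came from was not tested.

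Outside the 10 genes, the features that varied most like the mean of the standardized Cd3d, Cd3e and Cd3g over the 10 tumors were Sash3 (r = 0.981), Il18r1 (0.971), Rasl12 (0.968), Cd27 (0.966), Gm2a (0.965), Ltb (0.962), Pik3r6, Cd2 and Dennd1c (0.96 each) and Rasal3 (0.959). Sash3 encodes a lymphocyte signaling adaptor, Il18r1 a chain of the interleukin-18 receptor, Cd27 a costimulatory receptor, Ltb lymphotoxin beta and Cd2 an adhesion receptor of T and NK cells. These coefficients come from the 10 tumors of both groups and were picked as the highest among 14944 features, so no p is given. In the ranking of all 14944, which holds the 10 genes too, Cd8b1 (place 3) and Cd4 (place 7) stood highest of the 10. Cd3e, Cd3d and Cd3g were at places 13, 17 and 19. Lat, Zap70 and Lck were at places 34, 38 and 68, Cd8a at 219 and Cd247 at 808.

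Markers of other cells that could share these genes were read in the same tumors, and the counts of each list stand against the same shares of all features (48.6% with a higher mean in responders, 4.20% higher and 4.0% lower at an unadjusted p under 0.05). Of 11 NK cell markers listed, 9 of 9 tested were higher on average in responders, 7 of them with an unadjusted p under 0.05, and the median log2 fold change was 0.89. Their levels summed to 37.8, 121, 136, 220 and 129 CPM in responders against 76.8, 31.8, 45.9, 72.8 and 38.2 CPM in non-responders. The order of the tumors resembled that of Zap70, with responder 11 highest and responder 5 among the lowest. Gzma, the granzyme A gene and most abundant of the list, had a log2 fold change of 1.82 (SE 0.57; edgeR adjusted p = 0.58) and Prf1, the perforin gene, 1.32 (SE 0.38; edgeR adjusted p = 0.58), both of which cytotoxic T cells also express, and Klra8 was at 0 in all tumors. Ncr1, which is largely restricted to NK cells, was at 2.79 CPM per kb, a level within the range of the 10 genes, and had r = 0.922 with the mean of the Cd3 genes. The part of NK cells in the levels of Cd247, Lck, Zap70 and Lat was not tested.

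For regulatory T cells, 5 of 5 genes tested of 6 listed had a higher mean in responders (2 with an unadjusted p under 0.05, median log2 fold change 0.28), with a summed level of 21.3, 37.9, 38.3, 41.1 and 36 CPM in responders against 31.8, 22.4, 24.6, 22.3 and 22.2 CPM in non-responders. Here 4 responders stood above every non-responder and responder 5 was lowest. Il2ra, the most abundant (15.7 ± 5.38 against 8.88 ± 2.51 CPM), had a log2 fold change of 0.82 (SE 0.26; edgeR adjusted p = 0.58), and the defining factor Foxp3 was at 4.15 ± 0.917 and 3.38 ± 0.505 CPM (log2 fold change 0.28). Of the 7 markers of cross-presenting dendritic cells, some of which carry CD8 alpha, 4 were higher and 3 lower (2 and 1 with an unadjusted p under 0.05), and their sum was 27.3 ± 1.72 CPM in responders against 29.3 ± 2.3 CPM in non-responders, of which Wdfy4 gave 55.6%. Wdfy4 was lower in responders (log2 fold change -0.35, SE 0.10; edgeR adjusted p = 0.58), the transcription factor gene Batf3 (0.60) and Snx22 (0.41), named after their values were seen, were the 2 higher genes with an unadjusted p under 0.05, and Clec9a was at 2.73 ± 0.291 and 2.6 ± 0.335 CPM. Of gamma-delta T cell markers 2 were higher and 4 lower of 6 tested, and 1 higher (Trgc4) had an unadjusted p under 0.05. Sox13 was the most abundant, Trgc1 was at 2 to 27 counts and Il17a at 0 in some tumors.

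Lymphoid tissue in the pieces would add T cells, so its markers were read too. B cell markers summed to 2.39 ± 0.276 CPM in responders against 2.46 ± 0.382 CPM in non-responders (4 of 8 tested, 2 higher and 2 lower), and Cd79b was the most abundant at 0.596 CPM. Lymph node stroma and vessel markers summed to 4.41 ± 1.29 and 3.26 ± 1.43 CPM (3 of 3 tested higher, of 7 listed), with Cxcl13 the most abundant at 1.66 CPM, and Ccl19, Glycam1 and Madcam1 were at 0 in some tumors. Of thymocyte markers 3 were higher and 1 lower, with Cd1d1 the most abundant (5.27 CPM) and Rag1 at 0 in all tumors. Cd1d1 was the 1 higher gene with an unadjusted p under 0.05 (log2 fold change 0.28). Macrophage markers summed to 2643 ± 295 CPM in responders against 2412 ± 284 CPM in non-responders, led by Lyz2 (log2 fold change 0.10, with 0.14 for C1qa and 0.21 for Mrc1), with 9 of 10 higher and 0 at an unadjusted p under 0.05. Plasmacytoid dendritic cell markers (4 of 5 higher) summed to 195 ± 20.6 and 217 ± 16.6 CPM, of which Tcf4 gave 95.7%. Mast cell markers were higher for 8 of 8 genes, 5 with an unadjusted p under 0.05 (305 ± 69.1 against 225 ± 62 CPM, led by Tpsb2, with log2 fold changes of 0.40 for Tpsb2, 0.60 for Mcpt4 and 0.42 for Cpa3). Of the platelet markers tested 3 were higher and 1 lower (50.6 ± 15.5 against 33.5 ± 11.6 CPM, led by Pf4, with log2 fold changes of 0.86 for Pf4, 0.01 for Itga2b and -0.72 for Gp1bb). An unadjusted p under 0.05 was found for 1 higher (Pf4) and 1 lower (Gp1bb).

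The fibrosarcoma label was checked against Vim, Col3a1 and Fn1, genes of mesenchymal cells, which were at 4764, 2238 and 1225 CPM over the 10 tumors. Markers of fibrosarcoma and fibroblasts were lower in responders for 7 of 8 genes (3 with an unadjusted p under 0.05, median log2 fold change -0.21), with a sum of 10870 ± 499 against 11561 ± 785 CPM. Markers of skin, muscle and fat were lower for 6 of 7 tested (2 with an unadjusted p under 0.05, median -0.40; 89.6 ± 36.1 against 124 ± 35.1 CPM, led by Acta1). Both group means were thus lower in responders, unlike those of the 10 genes. For skin, muscle and fat this did not hold tumor by tumor. Responder 11, highest in 9 of the 10 genes, had a total of 144 CPM, the highest of the responders, and non-responder 1 one of 151 CPM. Nor did it hold for the fibroblast sum in every tumor. Responders 9, 10 and 12 (10408, 10585 and 10538 CPM) were below every non-responder. Responders 11 and 5 (11471 and 11348 CPM) were above non-responders 3 and 7 (10938 and 10593 CPM). Single genes of this list were not alike. Responders 9 to 12 were below every non-responder for Col3a1 (1903 to 2101 CPM) and Col1a1 (797 to 974 CPM, named after its values were seen), and responder 5 was not (2389 and 1022 CPM). Vim was highest in responder 11 (5619 CPM), and the groups overlapped for Fn1. The part of the makeup of each resected piece in the group differences was not tested.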

How the data were processed

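Tumor RNA (polyA, paired-end) was quantified by the authors with Kallisto on GRCm38 (mm10) and summarized to genes with tximport, and deposited as estimated counts, scaled neither to library depth nor to transcript length. The annotation release was not given in the sources used here. The table had 36009 rows (9580 unnamed), and the 44 names that occurred repeatedly were summed before rounding. Features above a CPM minimum (equal to 5.86 to 11.4 counts per tumor) in at least 3 tumors were kept. The methods of the study give this minimum where they describe its time course. Groups were compared with edgeR 4.0.16 (quasi-likelihood test, TMM, Benjamini-Hochberg adjustment over all features tested, threshold 0.05) in R 4.3.3, with DESeq2 1.42.0, limma-voom (limma 3.58.1), other scalings and filters, and leaving out each tumor as alternatives. The biological coefficient of variation was 10.4%. Levels in the text are TMM-normalized CPM, which carry the assignment error of estimated counts. Ratios and correlations used log2(CPM + 1), exact two-sided permutation tests and 100000 resamples. The fit across all features was tested on simulated data, and this does not show that it would call real differences in the 10 genes.

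The rule for genes to name took the 10 genes, the constant regions, the 3 most abundant of each of the other lists, and the 10 features most like the Cd3 genes; not all of the abundant markers are printed. Outside this rule, genes were named after their values were seen: those that make up a small count of low p-values, markers at 0, and Ncr1, Adgre1 and Col6a2. The 10 genes and the 21 lists were chosen with earlier results of these data known. No 2 libraries were alike within sampling noise (lowest chi-square per gene 5.17 over 45 pairs). For 2 genes of the lists, the values of the single gene are not reported here.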

Additional observations from a re-analysis of the deposited data

Results flagged for a closer look

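In 74 groups of 5 tumors (37 measures), 5 values, from 2 tumors, stood farther from the rest of their group than Dixon's 95% critical value of 0.71 allows, where 3.7 such values are given by chance at 1 in 20. Responder 5 was far below the other responders in 3 measures: the log2(CPM + 1) of Cd8b1 (0.732 against 1.56 to 1.9), the log2 ratio of Cd8b1 to Cd8a (-1.35 against -1.06 to -1.01), and the summed level of regulatory T cell markers (21.3 against 36 to 41.1 CPM). Non-responder 1 was far above the other non-responders in the summed regulatory T cell markers (31.8 against 22.2 to 24.6 CPM) and in the summed platelet markers (53.6 against 23.8 to 32 CPM). The cause was not tested.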

How the results depend on the processing

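DESeq2 called 1 feature, limma-voom left 1 gene of the 10 (Lck) with an unadjusted p under 0.05 (8.44% of all features) and the fit with no filter on low counts gave 3 (6.78%), against 2 of 10 by edgeR (8.21%). Leaving out 1 tumor at a time, features called ran from 0 to 9 and genes of the 10 with an unadjusted p under 0.05 from 0 to 7. The 9 calls and the 7 genes came without responder 5, when 13.6% of all features had an unadjusted p under 0.05 and the lowest adjusted p of the 10 was 0.0866, and the 0 came without responder 11 or non-responder 7. The median log2 fold change of the 10 genes ran from 0.22 to 0.61, that of Cd3d from -0.09 to 0.32, Cd247 from -0.20 to 0.22 and Cd8a from -0.03 to 0.38, with the sign of Cd8a turning without non-responder 2. The group difference in log2 ratio ran from -0.15 to 0.02 for Cd8a to Cd3e and from -0.06 to 0.16 for Cd3e to Ptprc. The cause was not tested. The signs of the other 7 genes and the other 4 ratios held under every alternative run. With 17 to 84 counts per tumor, counting error limits Cd8b1 most. No paired analysis was possible because the groups compared share no tumor number.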
